A study of Homo sapiens with 10 samples.

Results

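The insulin-like growth factor (IGF) binding proteins IGFBP1 to IGFBP7, the receptors IGF1R and INSR and the IGF-like growth factor IGFL1 were examined in chromate transformed BEAS-2B lines, 10 genes in all. They were named with earlier results of these arrays known, and the transcript cluster of each gene was selected by its mean intensity over the 10 arrays, the highest being taken where a gene had several. Of the 10 genes, 9 had a transcript cluster of their own among 28869 on the array. The remaining gene, IGFBP6, shares its cluster with C12orf57. IGFL1 was picked from its family because of its known change, so its values are described without a test, and 8 genes were left for testing.

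BEAS-2B is an established, immortalized line of human bronchial epithelial cells. Groups were taken from the array titles: 3 control lines, 3 Cr_small lines, 3 Cr_large lines and 1 array of parental BEAS-2B cells. The Cr_small and Cr_large lines were expanded from small and large soft agar colonies of cells that had been kept in 0.5 μM potassium chromate for 30 days and then in soft agar for 3 weeks. The control lines came from colonies that formed in soft agar without chromate, whereas the parental cells had been through neither step; the treatment text in the labels gives the chromate exposure for every array, and the titles and the paper's design were followed instead. Each line was grown from 1 colony and measured on 1 array (Affymetrix Human Gene 1.0 ST), so the tests measure the spread between clonal lines and not that between separate exposures.

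Values are log2 of the intensities the authors had made with the RMA16 algorithm, which adds a constant that shrinks the differences of dim genes. They ran from 4.32 to 14.05 with a median of 5.86, and 10 arrays limit the precision. Of 7 epithelial marker genes, KRT7, KRT8 and KRT18 were higher in the Cr lines and none lower (limma, adjusted p under 0.05). Of all clusters 5.33% were higher. KRT19 did not pass, at 5.79 to 10.07 in the Cr lines and 6.07 to 6.27 in the control lines. The log2 of the summed intensity of the 7 genes was 12.89 to 13.21 in the control lines, 13.20 in the parental cells and 13.46 to 13.92 in the Cr lines. KRT8 was above 11.4 on every array. The defining epithelial markers CDH1 and EPCAM, however, stayed between 4.81 and 5.71, under the median of all values. Of 7 mesenchymal markers none passed the test, and their sum was 13.74 to 14.30 in the control lines, 13.57 in the parental cells and 13.57 to 13.94 in the Cr lines. The part of these shifts in the results below was not tested. In bulk RNA, fewer cells of a kind and less RNA per cell cannot be told apart.

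IGF1 and IGF2 act on epithelial cells through the IGF1 receptor, a tyrosine kinase closely related to the insulin receptor, with which it can also form hybrids. The IGF binding proteins are secreted and hold most IGF outside the cell; they can block access to the receptor or prolong the supply of the growth factor, and proteases release it again. IGFBP7 binds IGF only weakly and is best known as a matrix protein, and IGFL1 belongs to a small family of secreted proteins with a receptor of its own, IGFLR1.

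Of the 8 tested genes, 4 differed between the 6 Cr lines and the 3 control lines at an adjusted p under 0.05 (limma, Benjamini-Hochberg over all clusters), IGFBP4 and IGFBP7 being lower and INSR and IGFBP1 higher. Across all clusters 11.0% passed this test, 5.33% higher and 5.72% lower. In these 4 genes no Cr line overlapped the control lines, which was also so in 16.7% of all clusters. The median log2 difference of the 8 genes was -0.21, against 0.01 over all clusters. Because the genes were named with results of these arrays known, and IGFBP4, IGFBP7 and IGFL1 stand in the study's own list of changed genes, the counts are no independent evidence. In the Cr_small lines alone 4 of the 8 passed (8.26% of all clusters) and in the Cr_large lines 3 of the 8 (7.44% of all clusters). Both comparisons share the control lines.

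**Figure D1:**
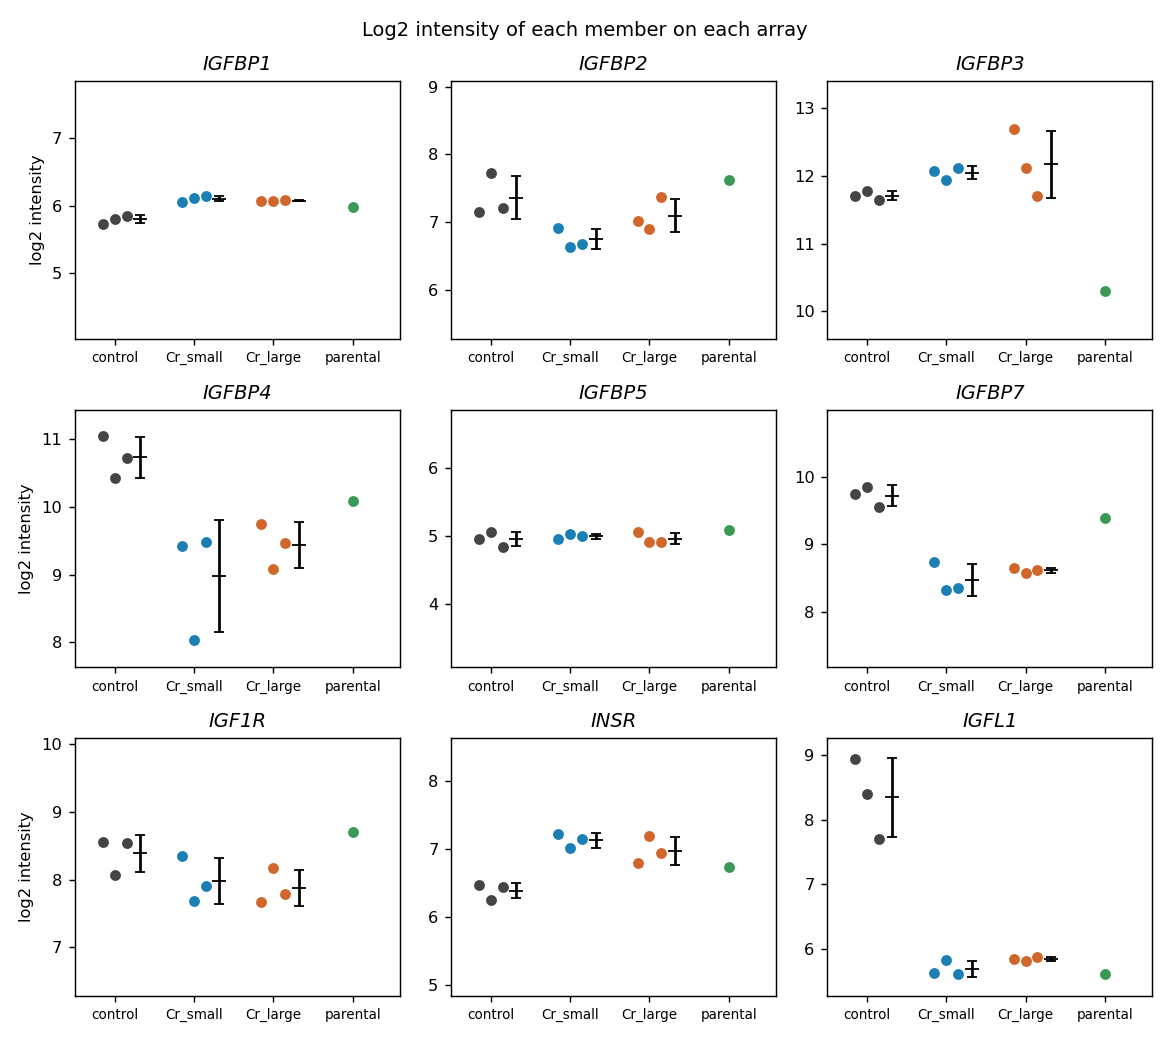
Log2 intensity of the 9 genes with their own transcript cluster on each of the 10 arrays (points), by group, with bars beside them for the mean and SD of the 3 lines in a group. IGFBP4, IGFBP7 and IGFL1 lie lower and INSR and IGFBP1 higher in all 6 Cr lines than in any control line, and IGFBP3 is lowest in the parental cells.

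To place the genes that separated the groups beside their regulatory sequence, the 250 bases before the RefSeq start of 4 of them were taken from GRCh38.p14. They are IGFL1 and IGFBP4, which were lower in the Cr lines, INSR, which was higher, and IGFBP3, which was above the parental cells in all 9 lines. Windows were found for 8 of the 10 genes. Capitals mark matches on either strand to TATAAA, the letters of a TATA box, or to GGGCGG, those of a GC box.
IGFL1 (chr19:46229492-46229741, plus strand): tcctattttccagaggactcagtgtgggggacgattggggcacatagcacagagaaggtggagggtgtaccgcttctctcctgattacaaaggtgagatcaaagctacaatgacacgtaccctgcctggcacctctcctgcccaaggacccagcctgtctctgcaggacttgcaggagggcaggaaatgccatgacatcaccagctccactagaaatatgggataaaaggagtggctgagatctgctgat
IGFBP4 (chr17:40443200-40443449, plus strand): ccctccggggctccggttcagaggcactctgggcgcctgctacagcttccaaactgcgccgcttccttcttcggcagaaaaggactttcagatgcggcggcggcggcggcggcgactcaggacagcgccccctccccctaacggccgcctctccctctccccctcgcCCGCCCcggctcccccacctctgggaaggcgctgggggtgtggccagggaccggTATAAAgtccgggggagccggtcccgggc
INSR (chr19:7294415-7294664, minus strand): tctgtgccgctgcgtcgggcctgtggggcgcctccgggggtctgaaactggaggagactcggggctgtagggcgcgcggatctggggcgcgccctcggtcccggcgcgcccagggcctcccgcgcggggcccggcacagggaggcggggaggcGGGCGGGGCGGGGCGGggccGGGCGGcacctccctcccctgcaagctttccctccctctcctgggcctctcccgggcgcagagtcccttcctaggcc
IGFBP3 (chr7:45921273-45921522, minus strand): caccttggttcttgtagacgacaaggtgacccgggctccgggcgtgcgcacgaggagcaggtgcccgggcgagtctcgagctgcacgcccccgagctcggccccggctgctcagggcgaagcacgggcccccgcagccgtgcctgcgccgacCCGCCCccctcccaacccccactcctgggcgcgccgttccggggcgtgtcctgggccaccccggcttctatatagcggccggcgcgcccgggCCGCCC

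The IGFL1 window held 3 CpG dinucleotides and no match to either motif, and 29.3% of the 35116 windows of this length had as few or fewer CpGs. The other windows shown were rich in CpG, with 24 in IGFBP4, 28 in INSR and 32 in IGFBP3, against a median of 11. Only the IGFBP4 window of the 4 held TATAAA, which is present in 10.7% of all windows, and INSR had 4 matches to GGGCGG, of which 3 overlap by a base. GGGCGG occurs in 42.6% of all windows. A match describes letters and not a bound site. Only these exact letters were searched, so a window without a match may still hold similar ones, such as tatata in that of IGFBP3.

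IGFBP4, a secreted binding protein that in most settings inhibits IGF, showed the largest difference of the 8 tested genes. Its log2 intensity was 11.04, 10.43 and 10.72 in control lines 1 to 3, 9.43, 8.03 and 9.48 in Cr_small lines 1 to 3, 9.75, 9.09 and 9.47 in Cr_large lines 1 to 3 and 10.09 in the parental cells. All Cr lines lay under the parental cells and all control lines above them, and Cr_small 2 was lowest by more than 1 log2 unit. In the 6 Cr lines IGFBP4 was 2.87-fold lower than in the control lines (log2 difference -1.52, standard error 0.33, adjusted p = 0.0245 from limma). The call ended without control 1 (adjusted p = 0.101), control 3 (0.0868) or Cr_large 2 (0.0513), and by the methods' t-test after Benjamini-Hochberg (adjusted p = 0.0614). It was 3.36-fold lower in the Cr_small lines (adjusted p = 0.0314) and 2.45-fold lower in the Cr_large lines, where it did not pass the test (adjusted p = 0.0932). Without Cr_small 2 the log2 difference was -1.28 in the remaining Cr_small lines (adjusted p = 0.0260), and that of the Cr_large lines, unchanged at -1.29, passed (adjusted p = 0.0138). Leaving out any 1 of the 3 control lines ended the Cr_small call (adjusted p from 0.0515 to 0.103). The Cr groups themselves differed by 0.46, higher in the Cr_large lines, with a 95% interval from -0.43 to 1.35, and by -0.02 without Cr_small 2.

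IGFBP7, the matrix-associated member of the family, was lower in each Cr line with less spread. It was at 9.75, 9.85 and 9.55 in the control lines, 8.74, 8.33 and 8.35 in Cr_small, 8.65, 8.57 and 8.63 in Cr_large and 9.40 in the parental cells. The lowest control line was 0.8 above the highest Cr line. The gene was 2.25-fold lower in the 6 Cr lines (log2 difference -1.17, standard error 0.10, adjusted p = 0.000609 from limma). By group it was 2.37-fold lower in the Cr_small lines (adjusted p = 0.00136) and, among the Cr_large lines, 2.15-fold lower (adjusted p = 0.00220). Leaving out any 1 line kept its adjusted p between 0.000365 and 0.00555.

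IGFBP3, which carries most IGF in the circulation, had the largest mean difference from the parental cells among the 8 tested genes. Its intensity was 11.70, 11.78 and 11.65 in the control lines, 12.08, 11.95 and 12.12 in Cr_small, 12.69, 12.12 and 11.70 in Cr_large and 10.30 in the parental cells. Every line from soft agar, with or without chromate, was at least 1.3 log2 units above the parental array. Cr_large 1 was highest, and Cr_large 3 fell within the control lines. The control mean was 2.65-fold and the Cr mean 3.49-fold above the parental cells. Between Cr and control lines the log2 difference was 0.40 (standard error 0.18, adjusted p = 0.229 from limma), which did not pass the test. Without Cr_large 3 it was 0.52 and passed (adjusted p = 0.0434), as did the Cr_large lines alone at 0.70 (adjusted p = 0.0457).

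IGFBP1, a binding protein that the liver makes under the control of insulin, rose by a small step. It was at 5.73, 5.81 and 5.85 in the control lines, 6.06, 6.11 and 6.14 in Cr_small, 6.07, 6.07 and 6.08 in Cr_large and 5.97 in the parental cells. All these levels lie near the median of all values, where the added constant compresses differences. The 3 hepatocyte marker genes ran from 4.59 to 5.98 on these arrays, APOA1 being the highest. Levels like those of IGFBP1 therefore do not by themselves show that the gene is expressed. The gene was 1.22-fold higher in the Cr lines (log2 difference 0.29, standard error 0.04, adjusted p = 0.00288 from limma), with an adjusted p of 0.00604 for Cr_small and 0.00938 for Cr_large. The 6 Cr lines spanned less than 0.1 log2 units.

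IGFBP2, another secreted binding protein, overlapped between groups. It was at 7.15, 7.72 and 7.21 in the control lines, 6.91, 6.64 and 6.68 in Cr_small, 7.02, 6.90 and 7.37 in Cr_large and 7.62 in the parental cells. The 3 Cr_small lines lay under the control lines, while Cr_large 3 lay among them. The log2 difference was -0.44 in the Cr lines (adjusted p = 0.119), -0.61 for Cr_small (adjusted p = 0.0779) and -0.26 for Cr_large (adjusted p = 0.477, all limma). None of these passed the test.

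IGFBP5, which binds to the extracellular matrix in many tissues, was between 4.85 and 5.09 on all 10 arrays, and its mean exceeded that of only 27.4% of clusters. Its log2 difference was 0.03 (standard error 0.06, adjusted p = 0.857 from limma), with a 95% interval from -0.11 to 0.16. All its levels were under the median of all values. For IGFBP6, which prefers IGF2, no cluster of its own was measured. The cluster that also matches C12orf57 was at 7.80 to 7.90 in the control lines, 7.34 to 8.11 in the Cr lines and 8.12 in the parental cells, with a log2 difference of -0.27 (adjusted p = 0.322 from limma), and it cannot be given to either gene.

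Of the receptors, INSR passed the test and IGF1R did not. INSR, the insulin receptor, was at 6.47, 6.26 and 6.44 in the control lines, 7.22, 7.02 and 7.14 in Cr_small, 6.79, 7.19 and 6.94 in Cr_large and 6.74 in the parental cells. Each Cr line was above the parental cells and each control line below them. INSR was 1.58-fold higher in the 6 Cr lines (log2 difference 0.66, standard error 0.09, adjusted p = 0.00415 from limma). It was 1.67-fold higher in the Cr_small lines (adjusted p = 0.00669) and 1.50-fold higher in the Cr_large lines (adjusted p = 0.0175). The Cr_large call ended without control 3 (adjusted p = 0.0537).

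IGF1R, the receptor of both IGFs, was at 8.55, 8.07 and 8.54 in the control lines, 8.34, 7.68 and 7.91 in Cr_small, 7.67, 8.18 and 7.79 in Cr_large and 8.71 in the parental cells. All 9 lines lay under the parental array, and control 2 lay among the Cr lines. The log2 difference of the Cr lines from control was -0.46 (standard error 0.18, adjusted p = 0.166 from limma, 95% interval from -0.88 to -0.04). A further cluster annotated to IGF1R gave -0.49 (adjusted p = 0.143). Neither passed the test. Against the parental cells the 2 clusters were lower by 0.78 and 0.99 in the Cr mean and by 0.32 and 0.50 in the control mean.

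**Figure D2:**
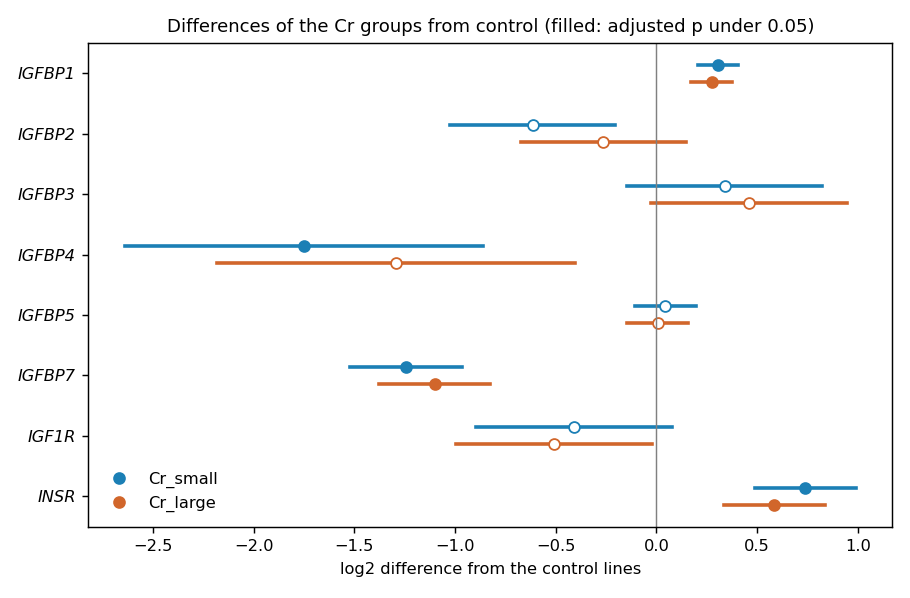
Log2 difference of the Cr_small and Cr_large lines from the control lines for the 8 tested genes (points) with 95% intervals from limma (bars). Points are filled where the adjusted p was under 0.05: IGFBP1, IGFBP7 and INSR in both groups and IGFBP4 in the Cr_small lines.

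IGFL1, the secreted IGF-like factor, was at 8.93, 8.40 and 7.71 in the control lines, 5.61, 5.83 and 5.60 in Cr_small, 5.84, 5.81 and 5.86 in Cr_large and 5.61 in the parental cells. The control lines stood apart from all other arrays, and the parental cells lay within the range of the Cr lines. The control mean was 6.66-fold above the parental cells, and the Cr mean 1.11-fold. The Cr lines were close to the median of all values, where differences are compressed. In the control lines IGFL1 had an SD of 0.62, compared with 0.12 over the 6 Cr lines. IGFL2, IGFL3 and IGFL4 stayed between 4.67 and 5.40 on all arrays, and IGFLR1 averaged 5.86 in the control and 5.77 in the Cr lines. None of these 4 genes passed the test in the Cr lines.

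Between large and small colonies none of the tested genes passed (limma, adjusted p under 0.05), also none at an unadjusted p under 0.05 by limma or by the methods' t-test. Of all clusters 0% passed the adjusted test, and 1266 of 28869 had an unadjusted p under 0.05 by limma. The widest interval was that of IGFBP4, given above. For IGFBP7 the Cr_large lines were higher by 0.14 (95% interval from -0.13 to 0.42), and for INSR they differed by -0.15 (95% interval from -0.41 to 0.10). For IGFBP2 the difference was 0.35 (95% interval from -0.06 to 0.76). These intervals do not show that the colony sizes were alike.

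The parental array separated the genes into several patterns. For each of the 4 genes called between Cr and control lines, IGFBP1, IGFBP4, IGFBP7 and INSR, it lay in the gap between the groups. Among the 4819 clusters whose Cr and control lines did not overlap, the parental array lay in the gap in 20.1%. Many of these clusters were not called, unlike the 4 genes, and the share among called clusters is not given. IGFBP3 was lowest and IGF1R highest in the parental cells, and IGFL1 was at the level of the Cr lines. Of the 8 genes only IGFBP3 was past 2-fold from the parental cells in the control mean, as were 1.13% of all clusters. In the mean of the 6 Cr lines it was again only IGFBP3, as were 1.85% of all clusters. By group, the Cr_small mean of IGFBP4 was past it too (log2 difference -1.11), and its Cr_large mean was not (-0.65). The further IGF1R cluster was past it in the Cr_large mean (-1.12) and not in the Cr_small mean (-0.87). The share of all clusters is not given by group. IGFBP3 is also in the study's own list of genes shared by the soft agar lines, and all these differences rest on the same single array. The spread of the parental cells was not measured, so these differences are given without a test.

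**Figure D3:**
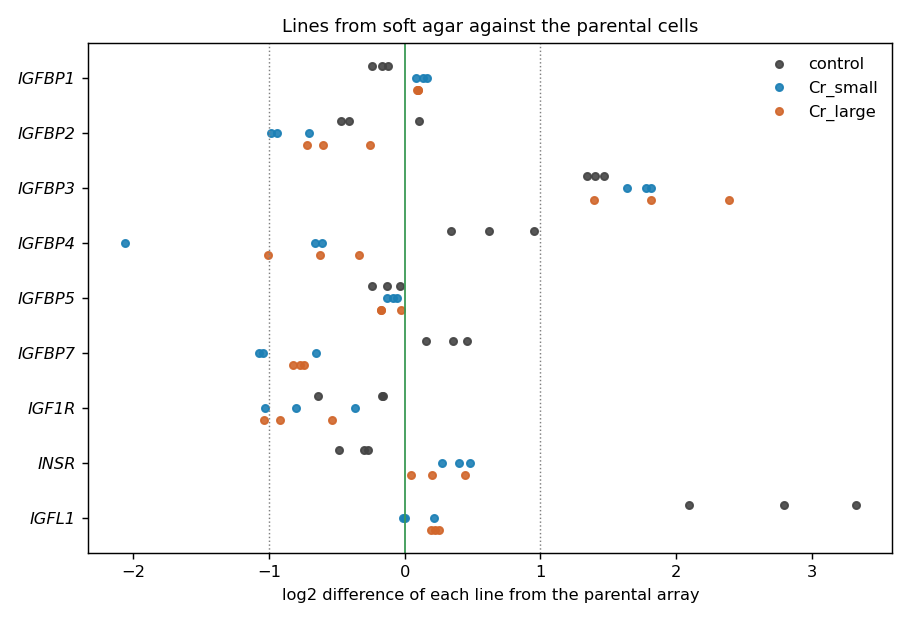
Log2 difference of each control, Cr_small and Cr_large line from the single parental array for 9 genes. The green line marks the parental level and the dotted lines a 2-fold difference. All 9 lines lie beyond 2-fold for IGFBP3, and only the control lines do for IGFL1. Some Cr lines lie beyond it for IGFBP4, IGFBP7 and IGF1R.

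The surroundings of the called genes in the gene order of GRCh38.p14 were set beside them. Of all clusters, 5.33% were higher and 5.72% lower in the Cr lines, and the counts of neighbours are a description without a test. The 10 measured neighbours of IGFBP4 on chromosome 17, from RAPGEFL1 to KRT24, had a median log2 difference of 0.12 in the Cr lines, 3 of them higher and none lower. Around IGFBP7 on chromosome 4, from HOPX to STAP1, the median was -0.04, with 3 of 10 lower and the lowest at -0.56. The neighbours of INSR on chromosome 19 lay between -0.26 and 0.21, and none passed the test. Those of IGFL1, which include IGFL2 to IGFL4, had a median of 0.05, with 1 of 10 higher and the highest at 0.50. IGFBP1 and IGFBP3 are next to each other on chromosome 7, 18584 bases apart, and IGFBP2 and IGFBP5 on chromosome 2, 7668 bases apart. In the first pair IGFBP1 passed the test and IGFBP3 did not. Around IGF1R on chromosome 15, 3 of 10 neighbours were lower and 1 higher, with a median of -0.04.

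Genes whose levels ran most like those of a member over the 10 arrays were sought by Pearson correlation among 2193 genes that ranged over at least 1 log2 unit. Genes of chromosome Y and genes without a known chromosome were left out, so the genes named are the most alike among the rest. The 10 arrays share the same 4 groups, and the values are a description. For IGFBP7 these were STX12 (0.99), ZEB1 (0.98), a repressor of epithelial genes, and MTM1 (0.98). For IGFL1 they were SERPINA3 (0.99), HHIP (0.98), an antagonist of hedgehog signaling, and LPXN (0.98). For IGFBP4 they were PLEK2 (0.96), GAS6 (0.96), a growth factor, and TPM1 (0.96), a tropomyosin. For IGFBP3 they were RIOK1 (0.96), SLX9 (0.96) and WNT5B (0.95). Those of IGFBP2, led by UBE2T, and of IGF1R, led by PTGFRN, reached 0.98 and 0.96.

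The rest of the pathway was followed in 68 listed genes, of which 62 had a cluster of their own. In the Cr lines 5 were higher and 6 lower at an adjusted p under 0.05 (limma), 11 in all, beside the 11.0% of all clusters given above, and the median log2 difference was 0.01. The count was 5 without control 3 and 6 without control 1. By the methods' t-test it was 17 without adjustment and 7 after Benjamini-Hochberg. The share of all clusters is not given for these other counts. Of the 3 ligands only IGF1 had its own cluster, at 4.69 to 4.87 on all arrays. IGF2R, which takes up IGF2 for breakdown, was at 9.39 ± 0.38 (SD, n = 3) in control and 9.37 ± 0.27 (SD, n = 6) in Cr lines. None of the 6 proteases and inhibitors passed the test. Among them HTRA1, a secreted protease that can cleave IGFBPs, had a log2 difference of -0.87 (adjusted p = 0.0739) and STC2, an inhibitor of the IGFBP4 protease PAPPA, -0.49 (adjusted p = 0.0712). PAPPA itself was at 5.67 ± 0.03 (SD, n = 3) in control and 5.63 ± 0.10 (SD, n = 6) in the Cr lines.

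Of 15 adaptors and regulators of the receptors, 3 were lower and 1 higher, beside 5.72% and 5.33% of all clusters. GRB10, an adaptor that restrains INSR and IGF1R, was 2.01-fold lower (adjusted p = 0.0134), at 8.15 ± 0.21 (SD, n = 3) in control and 7.14 ± 0.30 (SD, n = 6) in the Cr lines. GAB1 was 1.59-fold and SHC1 1.44-fold lower (adjusted p = 0.00446 and 0.0227). By group, SHC1 passed in the Cr_small lines (adjusted p = 0.0146 from limma) and not in the Cr_large lines (adjusted p = 0.210). IRS2, a docking protein of both receptors, was 1.18-fold higher (adjusted p = 0.00666). IRS1 had a log2 difference of -0.35 and did not pass (adjusted p = 0.123).

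Of 18 measured genes of PI3K, AKT and mTOR signaling, 2 were higher and 3 lower, beside 5.33% and 5.72% of all clusters. RICTOR, a subunit of mTOR complex 2, was 1.43-fold and TSC1, an inhibitor of mTOR complex 1, 1.39-fold higher (adjusted p = 0.00149 and 0.0299 from limma). PIK3R3, a regulatory PI3K subunit, was 1.75-fold, PDPK1 1.30-fold and FOXO1, a transcription factor that insulin signaling holds out of the nucleus, 1.20-fold lower (adjusted p = 0.0103, 0.0405 and 0.0298). By group, PDPK1 and FOXO1 did not pass in the Cr_large lines (adjusted p = 0.151 and 0.123 from limma). TSC1 did not pass in the Cr_small lines (adjusted p = 0.0824 from limma). The mRNA-binding proteins IGF2BP1 and IGF2BP2, named for their binding of IGF2 mRNA, were 1.64-fold and 1.44-fold higher (adjusted p = 0.00191 and 0.00158), while IGF2BP3 did not pass. None of the 11 relaxin and insulin-like peptides and receptors passed, and all of them stayed between 4.49 and 6.38.

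**Figure D4:**
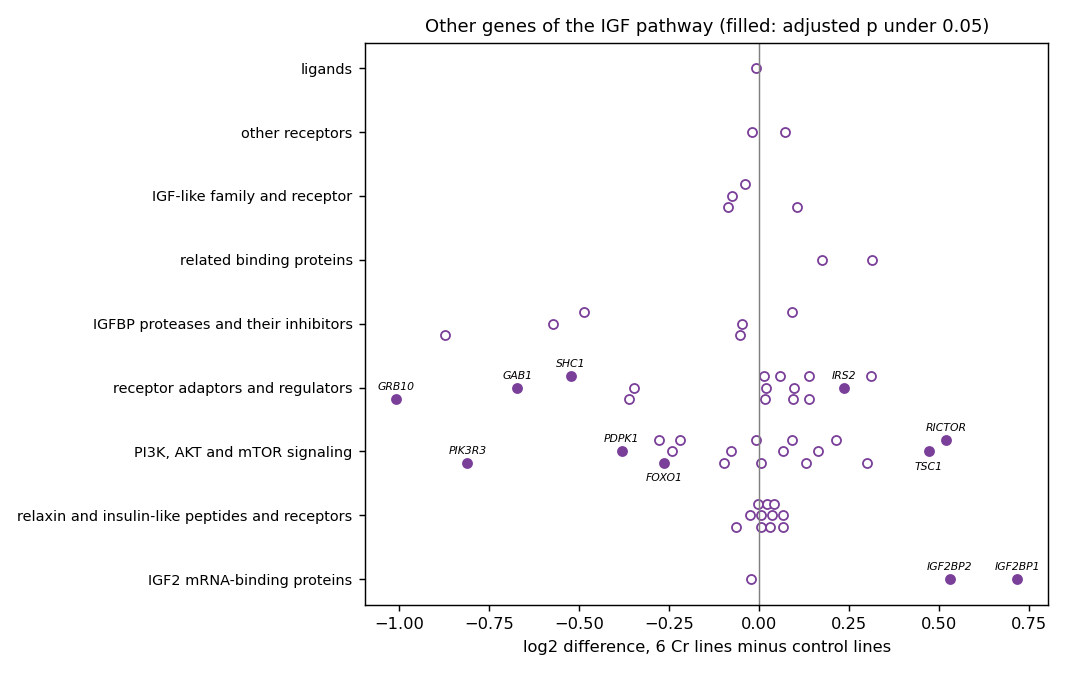
Log2 difference of the 6 Cr lines from the 3 control lines for 62 other genes of the IGF pathway, by list, filled and named where the adjusted p from limma was under 0.05. The 11 filled points lie among the adaptors, the PI3K, AKT and mTOR genes and the mRNA-binding proteins.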

How the data were processed

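RNA of 9 lines and of the parental BEAS-2B cells was hybridized to 1 array each. Per the paper's methods, the authors used GeneSpring, with RMA16 background correction, quantile normalization and a baseline transformation. The deposited intensities are on a linear scale and not set to a baseline, and their log2 was taken here. Of 28869 transcript clusters, 19310 carried 1 gene symbol in the array annotation, 1752 several and 7807 none here. Positions and sequences are those of RefSeq on GRCh38.p14.

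All clusters were fitted with limma 3.58.1 in R 4.3.3 as 4 group means (6 residual degrees of freedom). The Benjamini-Hochberg adjustment covered every cluster, and 0.05 was the threshold. Differences from the single parental array were counted at 2-fold. The genes and lists were chosen with earlier results of these data known. All 10 members were named, and the pathway genes where called or where a result turned on them; for members ranging over at least 1 log2 unit the 3 most alike genes were added, and 5 neighbours on each side. The steps were tested on simulated data. Alternatives were the unpaired t-test of the methods, moderation with a trend, fewer groups, a filter on dim clusters, other normalizations, averaged clusters, a replicate block and leaving out each line. Python 3.11.15 with matplotlib 3.10.9 made the figures.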

Additional observations from a re-analysis of the deposited data

How the results depend on the processing

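In the 6 Cr lines the number of tested genes called was 3 to 5 when each line was left out in turn, against 4 with all lines; it was 3 to 4 in the Cr_small and 2 to 4 in the Cr_large lines. After Benjamini-Hochberg the methods' t-test called 3 of the 8 genes in the 6 Cr lines, IGFBP4 being lost (adjusted p = 0.0614), and it called 0 of the 8 genes for Cr_small and 0 for Cr_large, whereas without adjustment it called 6 and 4. Its count of pathway genes was 7 after and 17 before adjustment, and leaving out each line gave 5 to 11. The share of all clusters is not given for the t-test or with a line left out, so these counts cannot be set beside it. By limma without adjustment 7039 of 28869 clusters passed in the 6 Cr lines, 6305 in Cr_small and 5986 in Cr_large. The spread of the parental cells was not measured. When the single parental array was assumed to vary like the other groups in limma, 0 of the 8 genes passed for the control lines and 2 for the Cr lines, IGFBP3 and IGFBP7, which is no test of the parental cells themselves. The share of all clusters passing in that fit is not given, so these counts cannot be compared with it. IGFBP4 was called in the Cr_large lines (adjusted p = 0.0291) and not in the Cr_small lines (adjusted p = 0.0579) when only the groups compared were fitted. IGFBP3 and IGFBP2 passed in the Cr_small lines in some of these fits. No called difference changed direction. The cause of these changes was not tested.

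Whether the line numbers of the titles pair the lines was not settled. Residuals of same-numbered lines correlated only from -0.145 to 0.0984 in 9 pairs. Among the lines of another group, however, a line correlated best with its own number in 12 of 18 comparisons. Each choice was among only 3 lines, and the 9 pairs were used from both sides, so the comparisons are not independent. With the number as a replicate block 4 tested genes were called in the Cr lines, as without it, and 12 pathway genes. The share of all clusters passing in that fit is not given, so these counts cannot be set beside it. In the Cr_large lines IGFBP4 then passed (adjusted p = 0.0305) and INSR did not (adjusted p = 0.0546). The intensity of IGFBP1 and IGFBP5, and of IGFL1 in the Cr lines and parental cells, was near or under the median of all values. This limits what the folds of these genes can show.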

Other observations

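Against the parental cells, none of the 62 pathway genes was past 2-fold in the control mean, beside 1.13% of all clusters. In the Cr mean 2 were, beside 1.85% of all clusters, and so few genes do not set the pathway apart. IGF2BP1 was at 6.51 in the parental cells, averaged 7.16 ± 0.16 (SD, n = 3) over control lines and reached 7.88 ± 0.10 (SD, n = 6) over Cr lines. PIK3R3 had 8.44 on the parental array, compared with 7.96 ± 0.14 (SD, n = 3) over control lines and 7.15 ± 0.24 (SD, n = 6) over Cr lines. STC2, which did not pass the test between Cr and control lines, averaged 9.28 ± 0.23 (SD, n = 3) over control lines, with the parental array at 8.44. PAPPA was at 6.19 in the parental cells and at no more than 5.74 in any of the 9 lines. All of these rest on 1 parental array.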
